A study of Mus musculus with 4 samples.

Results

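Axon guidance genes encode the cues and receptors by which growing axons, and also vessels and migrating cells, are steered. The members described here were taken by gene symbol: semaphorins of classes 3 to 7, plexins, neuropilins, ephrins, Eph receptors, Slits, Robos, netrins and the Unc5 and Dcc netrin receptors. The symbols matched 46 of the 13825 genes analysed, namely 22 ligands, 23 receptors and Unc50. Unc50 shares letters with the Unc5 receptors but is not a netrin receptor, so it is counted among the matches and kept out of the family summaries. Dcc and some other members of these families were not analysed here.

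Secreted class 3 semaphorins bind neuropilins, which lack a signalling domain of their own and act through plexins, whereas most membrane-bound semaphorins bind plexins directly. Ephrins stay attached to the cell that makes them and signal on contact through Eph receptor kinases, with ephrins also signalling in reverse. Slits act on Robos and netrins on Dcc and Unc5 receptors. In muscle these families meet the motor nerve terminal, the terminal Schwann cells and a dense bed of capillaries, and Robo4, Plxnd1, Unc5b, Ephb4 and Efnb2 are well known from blood vessels.

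RNA was sequenced from the tibialis anterior (TA), a muscle of the lower leg, in adult male mice, to see how loss of the hormone FGF21 alters the response of muscle to loss of its nerve. Sham and denervated muscle of WT mice (WS and WD) and of Fgf21KO mice (KS and KD) was collected after 14 days, and each of these groups was 1 library from 4 pooled muscles. Fgf21 was deleted in the whole body, so cells other than myofibres lacked it too, and the sham and denervated muscles came from opposite legs of the same mice. The labels describe the control leg as left innervated, whereas the study's methods describe a sham operation on it.

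Because each group was 1 pool, no difference between a pair of libraries has a replicate check, and such differences are given as log2 ratios of library-scaled counts (CPM) with 95% intervals that cover counting error only. Denervation and genotype were tested over the 4 libraries in an additive model, with edgeR's quasi-likelihood test and Benjamini-Hochberg adjustment, and a gene was called at an adjusted p below 0.05 and a change of at least 2-fold. The interaction supplies the only residual degree of freedom (1) of that model. The test therefore takes most of each gene's variance from a value shared over all genes (median prior degrees of freedom 26.9). Its p-values and SE measure only the spread among these pools, and are not a gene's own measured variation. Since both legs of a genotype came from 1 set of mice, the residual of the model holds no spread between mice. For the same reason genotype cannot be told apart from the set of mice. Genes averaging 10 reads or more were tested (13084 genes), and 44 of the 46 matches passed. Ntn3 (6, 13, 9 and 7 reads in WS, WD, KS and KD) and Plxnc1 (6, 12, 10 and 10 reads) did not.

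Library totals over the genes analysed ran from 25249879 (WS) to 34141303 (KS). Runx1, a transcription factor gene known to be induced when muscle loses its nerve, had 44 reads (WS), 5422 (WD), 53 (KS) and 5459 (KD), which follows the surgery labels. Of 8 myofibre markers listed, Myh1 was in the data, with 510937 to 641610 reads, and the others were not analysed here. The genotype labels could not be checked in this way, since Fgf21 was not analysed here. With TMM scaling the median gene had a denervated to sham log2 ratio of 0.01 in either genotype. With library totals alone these medians were 0.29 and 0.36, so changes below are relative to the median gene.

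The proximal promoters of the members with the largest responses are shown because these genes stand at the ends of the response, and because the letters CAGCTG form an E-box of the kind that myogenic factors bind. The windows are RefSeq sequences of GRCm38.p6, reach from 250 bases before to 50 bases after a transcription start, and are written 5′ to 3′ on the gene's own strand with CAGCTG in capitals. They are Robo2 at chr16:74411776-74412075 (minus strand), Ephb3 at chr16:21204545-21204844 (plus strand), and Sema6c at chr3:95160170-95160469 and chr3:95164089-95164388 (plus strand).
Robo2: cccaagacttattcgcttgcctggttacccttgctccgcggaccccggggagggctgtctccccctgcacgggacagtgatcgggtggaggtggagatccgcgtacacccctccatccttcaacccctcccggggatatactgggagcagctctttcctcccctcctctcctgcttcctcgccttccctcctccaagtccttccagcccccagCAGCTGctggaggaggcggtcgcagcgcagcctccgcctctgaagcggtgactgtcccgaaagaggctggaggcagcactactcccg
Ephb3: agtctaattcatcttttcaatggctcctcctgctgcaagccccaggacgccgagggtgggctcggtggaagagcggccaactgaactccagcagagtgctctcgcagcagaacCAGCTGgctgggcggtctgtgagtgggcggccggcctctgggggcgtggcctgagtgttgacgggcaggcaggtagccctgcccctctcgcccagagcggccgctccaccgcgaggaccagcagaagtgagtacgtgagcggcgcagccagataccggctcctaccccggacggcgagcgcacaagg
Sema6c, start 1: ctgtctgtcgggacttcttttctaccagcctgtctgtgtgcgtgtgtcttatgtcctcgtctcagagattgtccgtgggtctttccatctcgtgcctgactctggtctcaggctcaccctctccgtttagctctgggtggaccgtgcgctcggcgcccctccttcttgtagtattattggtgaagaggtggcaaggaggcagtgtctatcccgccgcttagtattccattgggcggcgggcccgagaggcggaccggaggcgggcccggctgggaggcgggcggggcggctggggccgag
Sema6c, start 2: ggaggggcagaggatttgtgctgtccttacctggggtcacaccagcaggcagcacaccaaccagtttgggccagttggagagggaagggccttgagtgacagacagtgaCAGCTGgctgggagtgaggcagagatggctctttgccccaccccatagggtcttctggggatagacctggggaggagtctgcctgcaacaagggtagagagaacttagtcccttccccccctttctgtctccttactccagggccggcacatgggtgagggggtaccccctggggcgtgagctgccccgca

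CAGCTG, which reads the same on both strands, began 37 bases before the start shown for Robo2, 137 bases before that of Ephb3 and 141 bases before the downstream start of Sema6c. The upstream start of Sema6c and the other 2 annotated starts of Robo2 had no match. The Robo2 window shown is thus the one with the match, at the most downstream of its annotated starts. Robo2 and Ephb3 rose and Sema6c fell, so the match did not go with a direction. Over all families, 7 of 53 windows of 38 members held CAGCTG (13.2%), against 16.3% of 32851 windows of all genes. The wider letters CANNTG, which include CAGCTG, were in 26 of the 53 windows (49.1%), against 72.3%. The MEF2 motif, searched on both strands, was in 1 of the 53 (1.89%), against 3.19%. These are matches of letters and not evidence of binding.

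Levels were compared between genes as CPM per kb of exon. Sema6c, a transmembrane semaphorin, had the highest level of the 46 in the sham libraries (43.2 in WS and 44.0 in KS) and dropped to 9.64 in WD and 8.95 in KD, ranks 4 and 5. Nrp1, the neuropilin that also binds VEGF, was at rank 2 in each of the 4 libraries, with levels of 28.0, 14.8, 25.2 and 14.4 in WS, WD, KS and KD. Sema4d, a ligand of plexin-B1, moved from rank 3 in sham muscle (17.1 and 13.8) to rank 1 in denervated muscle (23.7 and 22.1). Among the 46 genes matched, the one with the highest level thus differed between sham and denervated TA, in both genotypes. Summed over their members, ligands stood at 105 CPM per kb (WS), 72.4 (WD), 101 (KS) and 69.2 (KD), and receptors at 77.2, 47.0, 62.6 and 44.2. The ligand sums include Sema6c, whose own drop was larger than that of the sum in each genotype. The other ligands, summed, therefore did not fall. At the low end Plxnc1 did not exceed 0.0503 CPM per kb and Ntn3 did not exceed 0.0790.

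**Figure D1:**
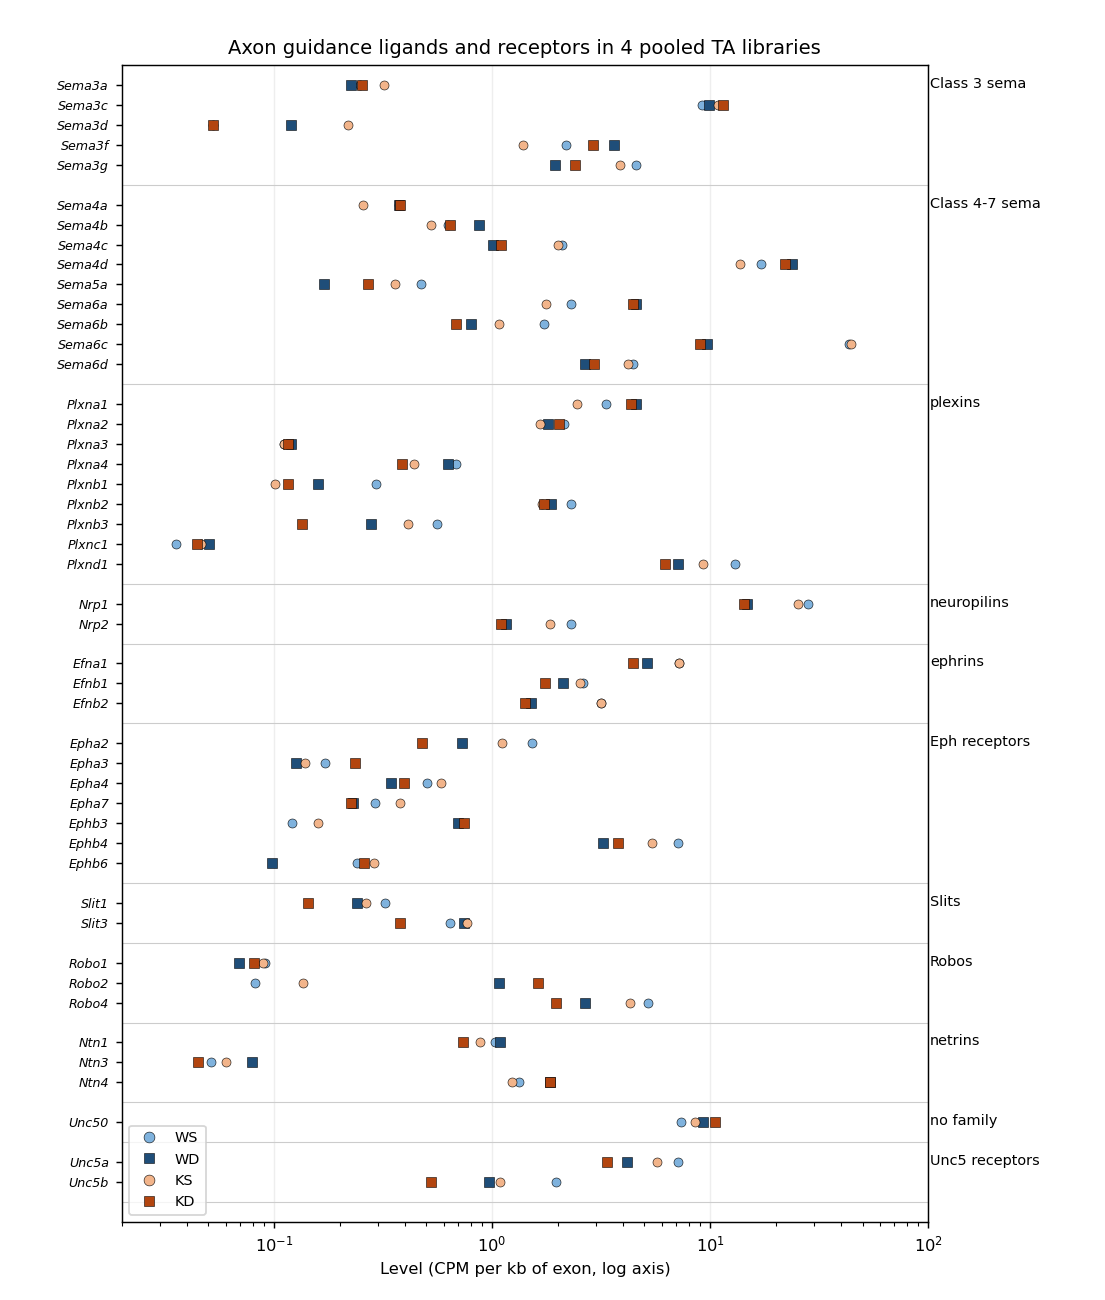
Level of each of the 46 genes in CPM per kb of exon on a log axis, with circles for sham and squares for denervated libraries, blue for WT and orange for Fgf21KO. Sema6c stood highest in sham muscle and Sema4d in denervated muscle, and Robo2 and Ephb3 show the widest gaps upwards from sham to denervated.

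With TMM scaling, denervation lowered more of these genes than it raised. In the additive model 6 of 44 members were called lower (13.6%, against 6.24% of all genes tested) and 3 were called higher (6.82%, against 6.84%). Those called lower were Sema6c, Plxnb3, Epha2, Efnb2, Robo4 and Unc5b, and those called higher were Robo2, Ephb3 and Sema6a. Scaled by library totals alone, 1 member (Sema6c) was called lower and 4 were called higher (Robo2, Ephb3, Sema6a and Sema3f), so the split of 6 lower to 3 higher rests on TMM scaling. Without the fold threshold, 18 members fell (40.9%, against 27.0% of all genes) and 8 rose (18.2%, against 26.6%), Unc50 being 1 of the 8. The median log2 change was -0.54 over the 43 tested family members and 0.01 over all genes, and 30 of the 43 lay below 0. Ligands and receptors gave similar counts in this model, with 9 of 21 ligands falling and 4 rising, and 9 of 22 receptors falling and 3 rising. The median pair ratios of ligands and receptors were -0.13 and -0.66 in WD vs WS, and -0.52 and -0.35 in KD vs KS. In bulk muscle, fewer cells of a type and less RNA per cell cannot be told apart, for these and all results below. Read numbers given below are unscaled, and ratios and changes are scaled.

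**Figure D2:**
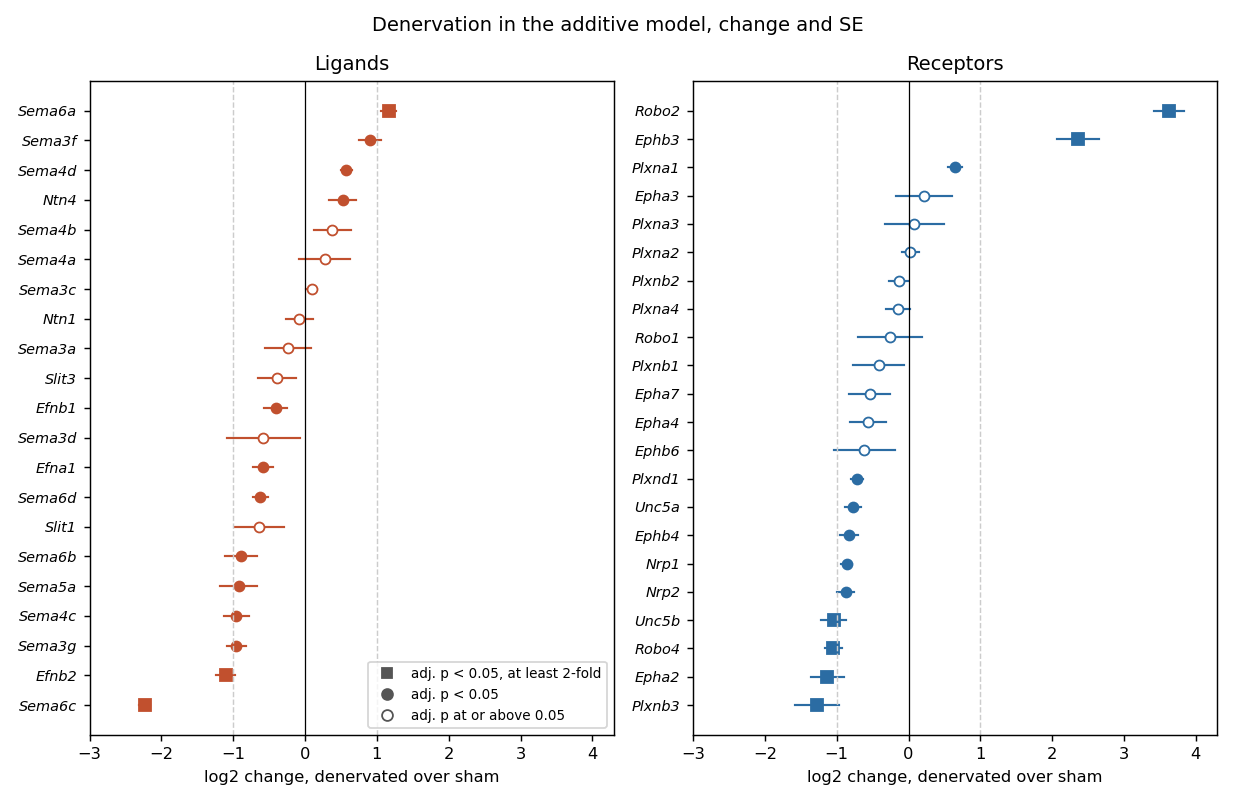
Log2 change from sham to denervated muscle in the additive model for 21 ligands and 22 receptors, with bars of 1 SE. Squares mark the 9 called members, filled circles an adjusted p below 0.05 only, open circles the rest, and dashed lines a change of 2-fold.

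Among the membrane-bound semaphorins of classes 4 to 7, 5 of 9 fell and 2 rose, beside 27.0% and 26.6% of all genes tested. Sema6c had 4077 reads (WS), 1278 (WD), 5313 (KS) and 1124 (KD). Each denervated library lay far below each sham library, and the change was -2.23 (SE 0.08, adjusted p = 6.5e-20 by edgeR's quasi-likelihood test). Sema6a, a ligand of the A-type plexins, went the other way, with 379 reads (WS), 1064 (WD), 373 (KS) and 977 (KD). Its change was 1.16 (SE 0.11, adjusted p = 3.4e-10), so these members of class 6 moved in opposite directions. Sema4d rose by 0.58 (SE 0.08). Sema4c, Sema5a, Sema6b and Sema6d fell, with changes of -0.96, -0.92, -0.89 and -0.62. Sema5a missed the threshold by DESeq2's Wald test (adjusted p = 0.062) and, with library totals alone, by edgeR's quasi-likelihood test (0.093). Sema4a (30, 42, 26 and 40 reads) and Sema4b (59, 115, 63 and 80 reads) did not pass the test. With library totals alone Sema4b passed it, at 0.70 (adjusted p = 0.032 by edgeR's quasi-likelihood test).

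Of the secreted class 3 semaphorins, Sema3f rose and Sema3g fell. Sema3f, a repellent that acts through Nrp2, had 176 reads (WS), 414 (WD), 143 (KS) and 312 (KD), a change of 0.90 (SE 0.15, adjusted p = 1.3e-05 by edgeR's quasi-likelihood test). Sema3g, a semaphorin of vascular endothelium, had 483, 287, 519 and 337 reads, a change of -0.96 (SE 0.13). Sema3c was the most abundant secreted semaphorin, at 9.14 to 11.4 CPM per kb, and its change was 0.09 (SE 0.08, adjusted p = 0.34). With library totals alone its change was 0.41 (adjusted p = 0.000625 by edgeR's quasi-likelihood test). Sema3a, the classic repellent of motor and sensory axons, had 36 reads (WS), 46 (WD), 59 (KS) and 49 (KD). Its change was -0.24 (SE 0.32, adjusted p = 0.56), which at these counts does not separate a modest rise from a fall.

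All 3 ephrins measured fell with TMM scaling, Efnb2 with the largest change. Efnb2, the ephrin of arterial endothelium and smooth muscle, had 350 reads (WS), 236 (WD), 450 (KS) and 211 (KD), a change of -1.10 (SE 0.14, adjusted p = 6.8e-08 by edgeR's quasi-likelihood test). Efna1, a membrane-anchored ligand of the EphA receptors, changed by -0.58 (SE 0.14), and Efnb1 by -0.41 (SE 0.16, adjusted p = 0.036). With library totals alone, the test was passed neither by Efna1 (adjusted p = 0.11) nor by Efnb1 (0.66), and Efnb1 also missed it with no filter (0.052), with denervation fitted alone (0.060) and by DESeq2's Wald test (0.24). The Slits and the netrin Ntn1 did not pass the test. Ntn4, a netrin of basement membranes, rose by 0.52 (SE 0.19, adjusted p = 0.019), with 113 reads (WS), 219 (WD), 133 (KS) and 207 (KD). By DESeq2's Wald test Ntn4 missed the threshold (adjusted p = 0.19).

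Among the receptors the largest responses were rises from low levels in sham muscle. Robo2, a Slit receptor best known from commissural and motor axons, had 17 reads in WS and 36 in KS, against 314 in WD and 448 in KD. The log2 ratio was 3.60 (interval 3.01 to 4.51) in WT and 3.51 (3.09 to 4.11) in Fgf21KO muscle, and the additive change was 3.63 (SE 0.21, adjusted p = 1.6e-14 by edgeR's quasi-likelihood test). It took Robo2 from 0.0821 to 1.08 CPM per kb in WT and from 0.136 to 1.63 in Fgf21KO muscle. Its paralogs did not follow: Robo1 stayed between 16 and 20 reads, and the endothelial Robo4 fell. Robo4 had 619 reads (WS), 446 (WD), 653 (KS) and 310 (KD), a change of -1.05 (SE 0.11, adjusted p = 7.7e-09). The 2 Slits in the data, Slit1 and Slit3, had changes of -0.64 (SE 0.34) and -0.38 (SE 0.26) that did not pass the test, at 0.144 to 0.766 CPM per kb.

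Ephb3, a receptor of the B ephrins, had 16 reads (WS), 130 (WD), 27 (KS) and 132 (KD). The sham and denervated libraries did not overlap, and the change was 2.36 (SE 0.30, adjusted p = 9.2e-08 by edgeR's quasi-likelihood test). The ephrins that bind it, Efnb1 and Efnb2, fell in the same libraries. Epha2, a receptor of Efna1, fell by 1.13 on the log2 scale (SE 0.23, adjusted p = 0.00013), with 138 reads (WS), 93 (WD), 129 (KS) and 58 (KD). Ephb4, the venous partner of Efnb2, changed by -0.83 (SE 0.12). Epha3, Epha4, Epha7 and the kinase-deficient Ephb6 did not pass the test, among them Epha4 at -0.56 (SE 0.25, adjusted p = 0.059).

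Of 8 plexins tested, 1 rose and 2 fell, beside 26.6% and 27.0% of all genes tested. Plxna1, a signalling partner of the neuropilins, had 696 reads (WS), 1352 (WD), 661 (KS) and 1216 (KD), a change of 0.64 (SE 0.10). Plxnd1, the endothelial plexin, had 2092, 1612, 1900 and 1328 reads, a change of -0.72 (SE 0.08). Plxnb3, a receptor of Sema5a, had 78 reads (WS), 55 (WD), 74 (KS) and 25 (KD), and was called lower at -1.27 (SE 0.31, adjusted p = 0.00087 by edgeR's quasi-likelihood test). Its ligand Sema5a fell too. Plxna2, Plxna3, Plxna4, Plxnb1 and Plxnb2 did not pass the test. Both neuropilins fell, Nrp1 by 0.86 (SE 0.08) and Nrp2 by 0.87 (SE 0.12) on the log2 scale, so Sema3f rose in libraries in which its receptor Nrp2 was lower.

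Both Unc5 receptors fell. Unc5b, the netrin receptor of endothelial tip cells, had 268 reads (WS), 185 (WD), 190 (KS) and 95 (KD). Its change was -1.04 (SE 0.18, adjusted p = 1.1e-05 by edgeR's quasi-likelihood test). Unc5a, known mainly from neurons, was the more abundant of the pair, at 7.13 CPM per kb (WS), 4.16 (WD), 5.72 (KS) and 3.36 (KD), and changed by -0.77 (SE 0.11).

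A hand-picked and incomplete list of 9 members known from the vessel wall fell together with markers of endothelial cells. These members (Robo4, Plxnd1, Nrp1, Nrp2, Unc5b, Ephb4, Efnb2, Sema3g and Efna1) were listed with their values known, so their count is a description: 9 of 9 fell, with changes from -1.10 to -0.58 and a median of -0.87. Of 10 endothelial markers 10 fell, with a median of -1.01, and their summed level was 633 CPM (WS), 294 (WD), 524 (KS) and 283 (KD). None of these markers was at or near 0. Under library totals alone, 9 of 9 members and 10 of 10 markers still lay below 0, of which 8 members and 8 markers passed the test.

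The same members were also counted per 1000 endothelial marker reads. Robo4 had 42.1 reads per 1000 (WS), 46.5 (WD), 41.9 (KS) and 35.4 (KD), and Nrp1 had 159, 182, 173 and 182. Over the 9 members the denervated to sham ratio of this share ran from 0.912 (Sema3g) to 1.54 (Efna1) in WT and from 0.834 (Efnb2) to 1.29 (Ephb4) in Fgf21KO muscle. Among the other 34 family members, 9 fell (26.5%, against 27.0% of all genes) and 7 rose (20.6%, against 26.6%). Their median change was -0.25, and 21 of the 34 lay below 0. Since the 9 vessel members were listed with their values known and all fell, setting them aside lowers the share of falls by construction. The share among the other 34 is therefore a description and not a comparison with the background. Markers of other cell types also moved: 6 of 7 pericyte and smooth muscle markers fell (median -1.23, from 1152 to 681 CPM summed in WT and from 1065 to 673 in Fgf21KO), 6 of 9 fibro-adipogenic progenitor markers fell, and 8 of 10 macrophage markers rose. Of 10 Schwann cell markers 5 were in the data and 3 of those fell, and the others were not analysed here. The part of these cell types in the guidance gene changes was not tested.

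**Figure D3:**
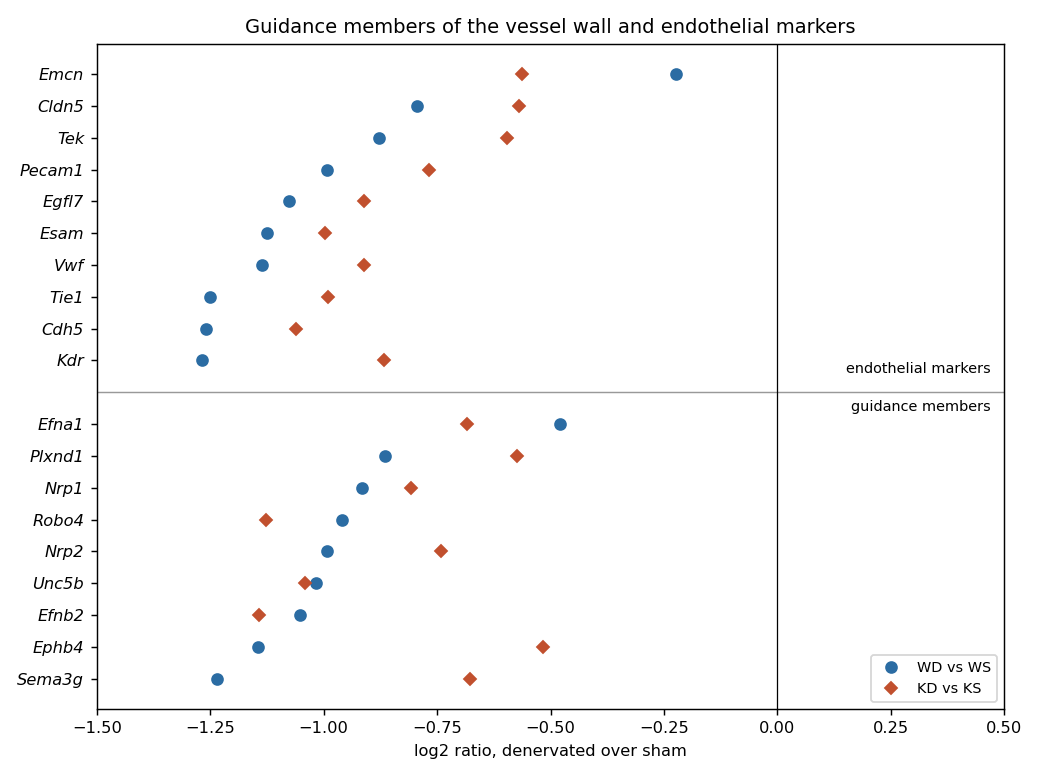
Log2 ratio of denervated over sham muscle for 9 guidance members known from vessels (below the line) and 10 endothelial markers (above it), with circles for WD vs WS and diamonds for KD vs KS. All 38 points lie below 0.

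For Robo2, Ephb3 and Sema6c, which had the largest additive changes, the log2 ratios of the 2 genotypes lay close together, although their difference was not tested. Other members with large ratios lay far apart, such as Sema5a (-1.45 in WT and -0.40 in Fgf21KO muscle) and Sema3d (1.07 and -1.88). In WD vs WS, 10 members were at least 2-fold lower (22.7%, against 7.61% of all genes) and 3 at least 2-fold higher (6.82%, against 7.18%). In KD vs KS, 7 were at least 2-fold lower (15.9%, against 6.10%) and 4 at least 2-fold higher (9.09%, against 7.51%). Under library totals alone these counts were 2 lower and 5 higher in WT, and 3 lower and 7 higher in Fgf21KO muscle. In both genotypes Sema6c, Efnb2, Epha2 and Unc5b were at least 2-fold lower (9.09%, against 3.99%), and Robo2 and Ephb3 at least 2-fold higher (4.55%, against 5.10%). Sema6c gave -2.16 (interval -2.26 to -2.07) in WT and -2.30 (-2.39 to -2.21) in Fgf21KO muscle, and Ephb3 gave 2.42 (1.78 to 3.38) and 2.15 (1.63 to 2.89). Sema6a lay at 0.995 in WT, just under the 2-fold mark, and at 1.33 in Fgf21KO muscle. The family member median was -0.40 in WT and -0.52 in Fgf21KO muscle.

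The other members at least 2-fold lower were Sema3g (-1.24), Sema4c (-1.04), Sema5a (-1.45), Sema6b (-1.10), Ephb4 (-1.14) and Ephb6 (-1.16) in WT, and Sema3d (-1.88), Plxnb3 (-1.55) and Robo4 (-1.13) in Fgf21KO muscle. Robo4 and Plxnb3 stood just under the mark in WT, at -0.96 and -0.97. The WT and Fgf21KO ratios were -1.05 and -1.14 for Efnb2, -1.04 and -1.18 for Epha2, and -1.02 and -1.04 for Unc5b, so these 3 genes gave nearly equal ratios. Of the members that rose, Plxna1 gave 0.47 and 0.82, Sema3f gave 0.74 and 1.06, and Ntn4 gave 0.46 and 0.57, each larger in Fgf21KO muscle. The ratios of Robo2 and Ephb3 were larger in WT. The Fgf21KO ratio lay above the WT ratio in 22 of the 43 tested family members, against 6431 of the 13084 genes. Ntn1 gave 0.08 and -0.25, Slit1 gave -0.41 and -0.83, and Efnb1 gave -0.29 and -0.52. Unc5a gave -0.77 in either genotype, Nrp1 gave -0.91 and -0.81, and Nrp2 gave -0.99 and -0.74.

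**Figure D4:**
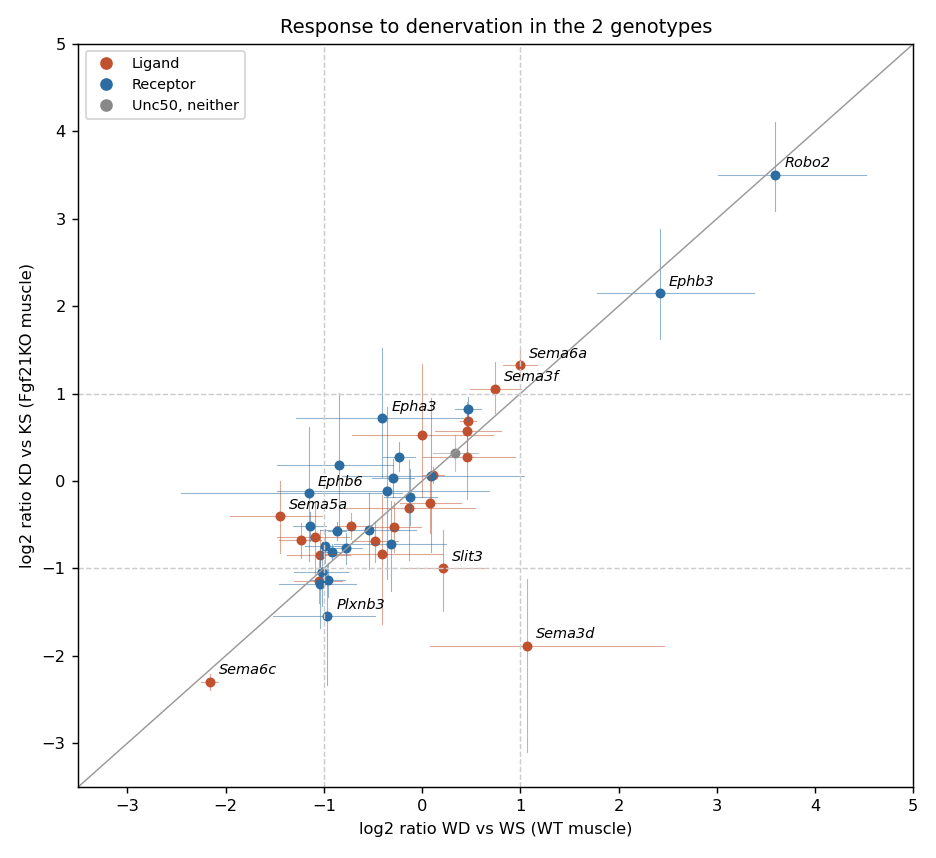
Log2 ratio of each tested member in WD vs WS (horizontal) against KD vs KS (vertical), with 95% counting intervals, the line of equal response and dashed lines at 2-fold. Robo2, Ephb3 and Sema6c lie near the line, and Sema3d lies farthest from it.

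Fewer members passed the tests for genotype than for denervation. In the additive model 0 of 44 members were called for genotype by edgeR's quasi-likelihood test (against 0.176% of all genes) and 0 by DESeq2's Wald test. By edgeR's adjusted p alone, 2 members were lower in Fgf21KO muscle (4.55%, against 0.359%). Unc5b, with the reads given above, changed by -0.86 (SE 0.18, adjusted p = 0.0076). The sham and denervated libraries of Fgf21KO muscle came from the same mice and are not independent for this test. Plxnd1 changed by -0.35 (SE 0.08, adjusted p = 0.035). DESeq2's Wald test gave these genes adjusted p-values of 0.52 and 0.95, and with library totals alone edgeR gave 0.081 and 0.18. Endothelial markers were lower in KS than in WS for 10 of 10 genes (median -0.22), whereas in KD vs WD 5 of 10 lay below 0 (median -0.03). Per 1000 endothelial marker reads, Unc5b had 18.2 in WS and 12.2 in KS, and 19.3 in WD and 10.8 in KD.

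At an unadjusted p below 0.05, 14 members were lower in Fgf21KO muscle (31.8%, against 4.53% of all genes) and 2 were higher (4.55%, against 3.39%), namely Robo2 (0.62) and Sema3c (0.23). The lower members were 4 of 21 ligands and 10 of 22 receptors, among them 6 of the 8 plexins tested. All 8 plexins had a log2 ratio below 0 in KS vs WS (median -0.43), beside 6580 of the 13084 genes tested. Among these plexins, Plxna3 stood at -0.00 and changed sign with DESeq2's size factors. The sign was not particular to plexins, since the 10 endothelial markers also all lay below 0 in sham muscle. After denervation 7 of the 8 plexins lay below 0 in KD vs WD (median -0.15), beside 6706 of the 13084 genes. Plxna4, a receptor of class 3 and class 6 semaphorins, missed the adjusted threshold, with 205 reads in WS, 168 in KS, 265 in WD and 154 in KD (-0.67, adjusted p = 0.057 by edgeR's quasi-likelihood test). Over the family members the genotype median was -0.25 in sham muscle and -0.08 in denervated muscle.

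In KS vs WS, Sema3d was at least 2-fold higher (2.27% of members, against 0.887% of all genes) and Plxnb1 at least 2-fold lower (2.27%, against 1.15%). Sema3d, a secreted semaphorin of the developing heart and vessels, had 9 reads in WS and 48 in KS, and Plxnb1, the receptor of Sema4d, had 59 and 26. In KD vs WD, Ephb6 was at least 2-fold higher (2.27%, against 0.841%) and Sema3d at least 2-fold lower (2.27%, against 0.711%). Ephb6 had 12 reads in WD and 30 in KD, and Sema3d had 29 and 12. These 3 genes had few reads, and none of them passed the genotype test of the additive model at an adjusted p below 0.05.

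For 6 members the denervation log2 ratios lay at least 1 apart between the genotypes (13.6%, against 4.11% of all genes), a difference that could not be tested in this design. Sema3d had the widest gap, with a ratio of 1.07 (interval 0.08 to 2.46) in WT and -1.88 (-3.11 to -1.12) in Fgf21KO muscle. Slit3, a Slit made by mesenchymal cells, had 78 reads (WS), 127 (WD), 119 (KS) and 61 (KD), with ratios of 0.21 (-0.21 to 0.64) and -0.998 (-1.49 to -0.57). The intervals of Sema3d and of Slit3 did not overlap between genotypes.

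Sema5a fell more in WT (-1.45, interval -1.95 to -1.02) than in Fgf21KO muscle (-0.40, -0.83 to -0.00), again without overlap. Epha3 gave -0.40 (-1.28 to 0.42) and 0.72 (0.04 to 1.52), Plxnb1 gave -0.85 (-1.47 to -0.30) and 0.18 (-0.60 to 1.01), and Ephb6 gave -1.16 (-2.46 to -0.21) and -0.14 (-0.92 to 0.61). For these last 3 genes, with mean counts under 50, the intervals overlapped. The gaps therefore rest on few reads for all but Slit3 and Sema5a.

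**Figure D5:**
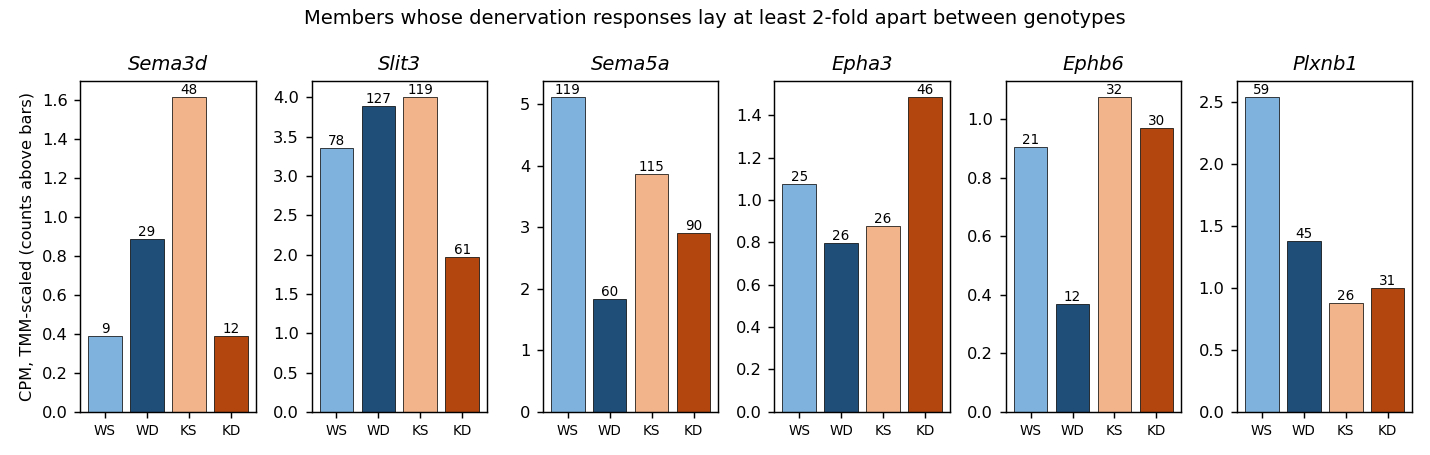
CPM with TMM scaling of the 6 members whose denervation responses lay at least 2-fold apart between genotypes, with the number of reads above each bar. Sema3d was higher in WD than in WS and lower in KD than in KS, from 9 to 48 reads.

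Genes of the pathway outside the symbol rule showed no common direction. Of 22 listed cell-surface and secreted genes 11 were tested, and 3 rose (27.3%, against 26.6% of all genes) and 5 fell (45.5%, against 27.0%). Met, the receptor of hepatocyte growth factor, rose by 1.15 (SE 0.08), and Flrt2, a ligand of Unc5 receptors, rose by 0.98 (SE 0.15). Flrt1, of the same family, fell from 140 to 21 reads in WT and from 58 to 11 in Fgf21KO muscle, a change of -2.92 (SE 0.35, adjusted p = 3.3e-08 by edgeR's quasi-likelihood test). Rgma, a repellent that binds neogenin, changed by -0.61 (SE 0.10). Of 60 listed intracellular genes 54 were tested, and 20 rose (37.0%) and 19 fell (35.2%), beside the same shares of all genes. Cdk5r1, the activator of the kinase Cdk5, rose by 2.58 (SE 0.44), with 3 reads (WS), 59 (WD), 15 (KS) and 63 (KD). With so few sham reads, its log2 ratios were 3.25 in WT and 1.88 in Fgf21KO muscle. Rras, a GTPase that plexins switch off, rose by 2.15 (SE 0.10). Tiam1 and Farp1, exchange factors for Rac, changed by -1.58 (SE 0.23) and -1.18 (SE 0.17).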

How the data were processed

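RNA from TA muscle was sequenced as 4 libraries, each a pool of 4 muscles, prepared with a stranded mRNA kit. The authors deposited raw read counts per gene. The other table they deposited is on a log2 scale and, although named for FPKM, was found to be log2(count × factor + 1) with 1 factor for each library. The submitters' processing notes name GRCm39 and FastQC; the aligner, the counter and its strand setting are not given in the sources used here. Groups were taken from the labels.

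Counts were analysed with R 4.3.3, edgeR 4.0.16 (TMM, glmQLFit and glmQLFTest, common biological coefficient of variation 0.0681), DESeq2 1.42.0 and Python 3.11.15. SE was derived from the log2 change and its F statistic. Pair ratios are log2 CPM at a prior count of 2, with exact conditional (Clopper-Pearson) intervals at 95%. A count of 3 corresponds to 0.0919 (WD) to 0.129 CPM (WS). CPM per kb used merged exon lengths of GENCODE M21 on GRCm38. The additive fit differs from the study's pairwise comparisons, since 1 library per group allows no test of a pair.

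Any gene matched by the symbol rule could be named, with values for the highest and lowest of each family, for those at least 2-fold apart in both genotypes and for those at least 2-fold apart between genotypes. Outside the rule, the 2 highest and 2 lowest of each pathway list were named. The members and lists were chosen with earlier results of these data known. Other settings were total counts or DESeq2's size factors for scaling, filters at 0 or 50 reads on average, a prior count of 0.125 or 5, the deposited log2 values, a required counting interval that leaves out 0, DESeq2's Wald test, no fold threshold and a fit of each factor alone. The scripts were tested on simulated data.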

Additional observations from a re-analysis of the deposited data

Results flagged for a closer look

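Sema3d and Plxna2 moved in opposite directions in the 2 genotypes, each judged on 1 library per group, and neither difference was tested. The log2 ratio of Sema3d was 1.07 in WT and -1.88 in Fgf21KO muscle, from 9, 29, 48 and 12 reads in WS, WD, KS and KD. The log2 ratio of Plxna2, the plexin that binds Sema6a, was -0.23 (interval -0.40 to -0.07) in WT and 0.28 (0.11 to 0.44) in Fgf21KO muscle, from 546, 652, 546 and 690 reads before scaling. For Plxna2 the opposite signs depend on the scaling, since with total counts only the ratio in WT was 0.05 and the additive change was 0.34 (adjusted p = 0.049 by edgeR's quasi-likelihood test).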

How the results depend on the processing

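The same 9 members were called for denervation with DESeq2's size factors, DESeq2's Wald test, no filter, a filter at 50 reads and denervation fitted alone. With total counts only, 5 were called, since Plxnb3, Epha2, Efnb2, Robo4 and Unc5b stayed lower (adjusted p from 0.00022 to 0.018 by edgeR's quasi-likelihood test) but by less than 2-fold, and Sema3f passed it. Without the fold threshold 26 members were called for denervation and 2 for genotype. Denervated and sham WT muscle differed at least 2-fold in 13 members, against 7 with total counts only and 6 on the deposited log2 values, and Fgf21KO muscle in 11, against 6 on the deposited values. Between genotypes, KS vs WS and KD vs WD gave 2 members each, against 0 each with a filter at 50 reads and 0 each on the deposited values, and 1 in KD vs WD at a prior count of 5. Responses at least 1 apart between genotypes were found in 6 members, against 2 with a filter at 50 reads. On the deposited values a pseudocount of 1 shrinks the ratios of low genes. Of the values of single genes under other scalings, other prior counts and the deposited values, 825 stayed within the spread or interval of the value and 55 moved. Under these settings no ratio of at least 2-fold changed sign, but 14 smaller ones did, 12 of them with total counts only. These totals leave out the 2 filter settings. With no filter, and with a filter at 50 reads, 1 family member each changed sign in KS vs WS. The genotype term already pairs the legs of each set of mice. Single mice could not be paired, because every condition has only 1 library. Leaving out a library would leave the additive model no residual degree of freedom. Depth limits the members with few reads, as in the counting interval of Sema3d in WT (0.08 to 2.46).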
